A study of Mus musculus with 10 samples.

Results

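A set of 10 genes that macrophages of the splenic red pulp express were followed through the RNA of sorted regulatory T cells (Treg), CD4 T cells that express Foxp3 and hold immune responses in check. The genes were Hmox1, Slc40a1, Spic, Csf1r, Adgre1, Vcam1, Mertk, Lrp1, C1qa and Cd68, 10 of the 22553 Ensembl genes in the count table. They were chosen by their own counts, as macrophage genes that stood high in the libraries numbered 2 of both genotypes, so their levels by library number are given as a description and carry no test. All 10 passed the filter on low counts.

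YFP-positive Treg were sorted from spleens and lymph nodes of female littermates on the C57BL/6 background, and their poly(A) RNA was sequenced in 3 knockout (KO) libraries from Tfam fl/fl Foxp3 Yfp-Cre/+ mice and 3 control libraries from Tfam fl/+ Foxp3 Yfp-Cre/+ mice. TFAM packages mitochondrial DNA and drives its transcription. Cre was expressed from the Foxp3 locus in both groups, so the control cells could lose 1 Tfam allele, and because Foxp3 is X-linked and the mice were heterozygous for the Cre allele, all animals also kept Treg without Cre. Each library pooled cells of 2 to 3 mice. Both groups carry replicate numbers 1 to 3 in the labels, which do not say whether a number marks a litter, a day or a sort, so p-values speak only to how far these pools varied, part of which may be technical.

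Red pulp macrophages take up aged red cells, break down their heme and return the iron to the plasma. Their development in mice depends on the transcription factor Spi-C, which heme induces. Heme oxygenase 1 opens the heme ring and ferroportin, the only known cellular iron exporter of mammals, releases the iron. Spleen suspensions for cell sorting contain these cells, which carry F4/80 and VCAM-1 on their surface, while Treg are not known for heme recycling.

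Gene counts per library lay between 19087757 and 23794028 in KO and between 21419772 and 27490253 in control. Levels are given as CPM, gene counts scaled to library size with TMM factors. The libraries matched their label as Treg: Foxp3 stood between 783 and 873 CPM in KO and between 688 and 853 CPM in control, Il2ra, the IL-2 receptor alpha chain, between 317 and 326 CPM in KO and between 309 and 316 CPM in control, and Cd4 between 575 and 582 CPM in KO and between 606 and 638 CPM in control. Tfam (ENSMUSG00000003923) stood at 15.6, 14.4 and 16.5 CPM in KO replicates 1 to 3 and at 25.9, 30.6 and 42.4 CPM in control replicates 1 to 3, and the groups did not overlap. Both libraries numbered 2 stood apart in the RNA of macrophage genes, and results that rest on them are given with and without them.

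Together the 10 macrophage genes held 551, 1357 and 471 CPM in KO replicates 1 to 3, against 396, 959 and 457 CPM in control replicates 1 to 3. In KO the library numbered 2 was 2.66-fold above the mean of the libraries numbered 1 and 3, and in control 2.25-fold. As a share of all gene counts the 10 genes made up 0.0548%, 0.135% and 0.0471% in KO replicates 1 to 3 and 0.0392%, 0.0985% and 0.0455% in control replicates 1 to 3. Bulk counts do not show which cells the RNA came from. More macrophages, more RNA per macrophage and RNA of these genes from other cells, Treg among them, cannot be told apart. Every one of the 10 genes was higher in number 2 than in numbers 1 and 3 in both genotypes, a pattern that 15.3% of all 11990 tested genes showed. A margin of at least 1.5-fold over both other numbers in both genotypes was held by 9 of the 10 and by 1.5% of tested genes. The exception was Hmox1, with 1.44-fold over control replicate 3. These counts follow from how the genes were chosen.

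**Figure D1:**
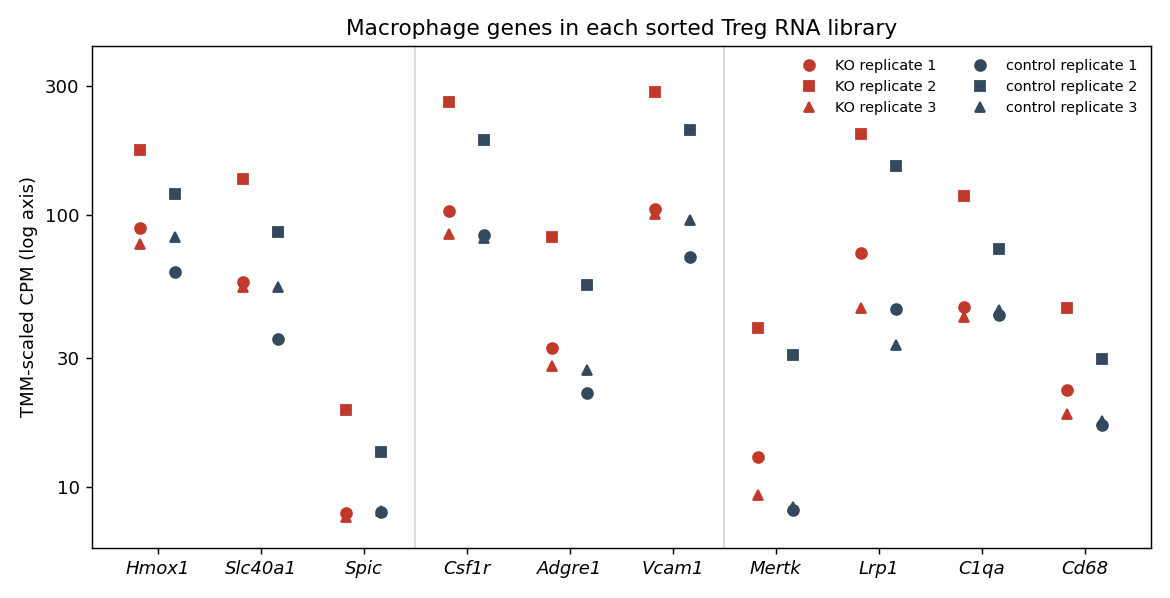
Level of each of the 10 macrophage genes (TMM-scaled CPM, log axis) in the 3 KO libraries (red, left) and the 3 control libraries (dark, right), with the marker shape giving the replicate number and grey lines separating iron and heme recycling, identity and adhesion, and uptake genes. For every gene the squares, the libraries numbered 2, lie above the other libraries of their genotype, as for Vcam1 at 283 CPM in KO and 206 CPM in control.

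Among the genes of heme and iron handling, Hmox1 (ENSMUSG00000005413), which encodes heme oxygenase 1, stood at 90.2, 174 and 78.7 CPM in KO replicates 1 to 3 and at 62.1, 120.2 and 83.4 CPM in control replicates 1 to 3. Slc40a1 (ENSMUSG00000025993), the gene of ferroportin, stood at 57.0, 136 and 54.3 CPM in KO replicates 1 to 3 and at 35.0, 86.6 and 54.6 CPM in control replicates 1 to 3. For both, control replicate 1 was the lowest of the 6 libraries, and the genotypes overlapped. Spic (ENSMUSG00000004359), the gene of Spi-C, stood at 8.06, 19.3 and 7.76 CPM in KO replicates 1 to 3 and at 8.10, 13.5 and 8.18 CPM in control replicates 1 to 3. Outside number 2 its 4 values lay between 7.76 and 8.18 CPM, and the genotypes overlapped.

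Csf1r (ENSMUSG00000024621), the receptor for the macrophage growth factors CSF1 and IL-34, stood at 103, 260.3 and 85.6 CPM in KO replicates 1 to 3 and at 84.5, 189 and 82.9 CPM in control replicates 1 to 3. Adgre1 (ENSMUSG00000004730) encodes F4/80, the surface protein by which mouse macrophages are commonly stained. It stood at 32.4, 83.1 and 27.9 CPM in KO replicates 1 to 3 and at 22.3, 55.6 and 27.02 CPM in control replicates 1 to 3. Vcam1 (ENSMUSG00000027962), a ligand of the integrin VLA-4, stood at 105, 283 and 101 CPM in KO replicates 1 to 3 and at 70.5, 206 and 96.2 CPM in control replicates 1 to 3. The library numbered 2 was 2.75-fold above the mean of the other two for Vcam1 in KO and 2.48-fold in control. The genotypes overlapped for all 3 genes. Vcam1 is also an endothelial and stromal gene, and of the defining genes of those cells Pdgfra, Ccl19 and Ccl21a had 0 counts in all 6 libraries, Kdr at most 5 counts, Cdh5 at most 10 counts and Col1a1 at most 39 counts in any library. Stab2, of sinusoidal endothelium, had 233, 434 and 177 counts in KO replicates 1 to 3 and 167, 354 and 273 counts in control replicates 1 to 3, highest in number 2 in both genotypes. The part of such cells in the Vcam1 level was not tested.

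Of the genes for uptake of dying cells and debris, Mertk (ENSMUSG00000014361), a receptor kinase for apoptotic cells bridged by Gas6 and protein S, stood at 12.9, 38.4 and 9.39 CPM in KO replicates 1 to 3 and at 8.22, 30.6 and 8.47 CPM in control replicates 1 to 3. Lrp1 (ENSMUSG00000040249), an endocytic receptor whose ligands include heme bound to hemopexin, stood at 72.6, 198 and 45.5 CPM in KO replicates 1 to 3 and at 45.1, 152 and 33.5 CPM in control replicates 1 to 3. These 2 genes had the widest margins of the 10: number 2 over the mean of numbers 1 and 3 was 3.44-fold in KO and 3.66-fold in control for Mertk and 3.36-fold in KO and 3.87-fold in control for Lrp1. C1qa (ENSMUSG00000036887), the A chain of complement C1q, which macrophages secrete, stood at 46.1, 118 and 42.4 CPM in KO replicates 1 to 3 and at 42.9, 75.3 and 44.9 CPM in control replicates 1 to 3. Cd68 (ENSMUSG00000018774), a lysosomal membrane glycoprotein, stood at 22.9, 45.7 and 18.7 CPM in KO replicates 1 to 3 and at 16.9, 29.8 and 17.5 CPM in control replicates 1 to 3. C1qa and Cd68 had narrower margins in control, 1.72-fold and 1.73-fold, than in KO, 2.67-fold and 2.20-fold. With 1 library per number and genotype, that difference between genotypes was not tested.

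The bases before the gene start are shown for 3 of the 4 macrophage genes that the RefSeq promoter table holds (Spic, Mertk, Lrp1 and Cd68, build GRCm38.p6). Any part of these sequences in the levels by library was not tested. Spic is shown as the gene of the lineage's own factor, Lrp1 as the gene that departed most from the others, and Cd68 as the one whose window holds a match to the GAGGAA core that PU.1 and Spi-C bind. Each run is the 250 bases before the start, 5′ to 3′ on the gene's own strand, which is the minus strand for all 3. Spic lies at chr10:88683024-88683273, Lrp1 at chr10:127621149-127621398 and Cd68 at chr11:69666171-69666420. Capitals mark matches, on either strand, to GAGGAA, to the antioxidant response element TGACNNNGC or to the E-box CACGTG.
Spic: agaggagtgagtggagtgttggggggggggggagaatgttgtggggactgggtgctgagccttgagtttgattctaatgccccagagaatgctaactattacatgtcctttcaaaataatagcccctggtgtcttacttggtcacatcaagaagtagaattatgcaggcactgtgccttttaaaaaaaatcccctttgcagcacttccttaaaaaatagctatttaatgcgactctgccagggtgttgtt
Lrp1: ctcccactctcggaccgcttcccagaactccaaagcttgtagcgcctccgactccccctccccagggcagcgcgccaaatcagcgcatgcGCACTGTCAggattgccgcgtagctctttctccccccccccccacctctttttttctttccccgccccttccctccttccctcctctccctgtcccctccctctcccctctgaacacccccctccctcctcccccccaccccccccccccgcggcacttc
Cd68: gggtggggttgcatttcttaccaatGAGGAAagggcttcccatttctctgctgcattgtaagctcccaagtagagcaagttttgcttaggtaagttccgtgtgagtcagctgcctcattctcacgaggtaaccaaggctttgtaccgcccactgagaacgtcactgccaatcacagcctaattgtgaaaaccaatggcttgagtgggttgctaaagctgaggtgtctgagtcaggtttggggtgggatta
GAGGAA was found in the Cd68 window, starting 225 bases before the start, and TGACNNNGC in the Lrp1 window on the opposite strand, starting 160 bases before the start. The other two windows searched, Spic and Mertk, held none of the 3 motifs, and the 2 matches do not overlap another motif. Of 27025 promoter windows of this length, 23.1% held GAGGAA, 10.1% held TGACNNNGC and 5.93% held CACGTG. A match of these letters is a description of the sequence and not a measured binding site.

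The mix of the 10 genes was not the same in every library. Lrp1 made up 13.2%, 14.6% and 9.66% of their summed counts in KO replicates 1 to 3 and 11.4%, 15.9% and 7.33% in control replicates 1 to 3. The lowest and highest of these had Wilson 95% intervals of 6.89% to 7.80% (control replicate 3) and 15.4% to 16.3% (control replicate 2), which cover counting error only. Lrp1 was thus low in both libraries numbered 3 and high in both numbered 2, and its share differed 2.16-fold between extremes. Mertk, at 2.34%, 2.83% and 1.99% in KO replicates 1 to 3 and 2.08%, 3.19% and 1.85% in control replicates 1 to 3, had its highest shares in number 2 and its lowest in number 3. Adgre1 varied least, between 5.64% and 6.12%, followed by Csf1r (18.2% to 21.4%) and Vcam1 (17.8% to 21.5%). Hmox1 ran the other way, with 12.8% in KO replicate 2 and 12.5% in control replicate 2 against 15.7% to 18.3% in the other 4 libraries. As a ratio of counts, Lrp1 over Hmox1 was 0.805, 1.14 and 0.578 in KO replicates 1 to 3 and 0.726, 1.27 and 0.401 in control replicates 1 to 3. Both genotypes gave the same order, number 2 above number 1 above number 3.

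**Figure D2:**
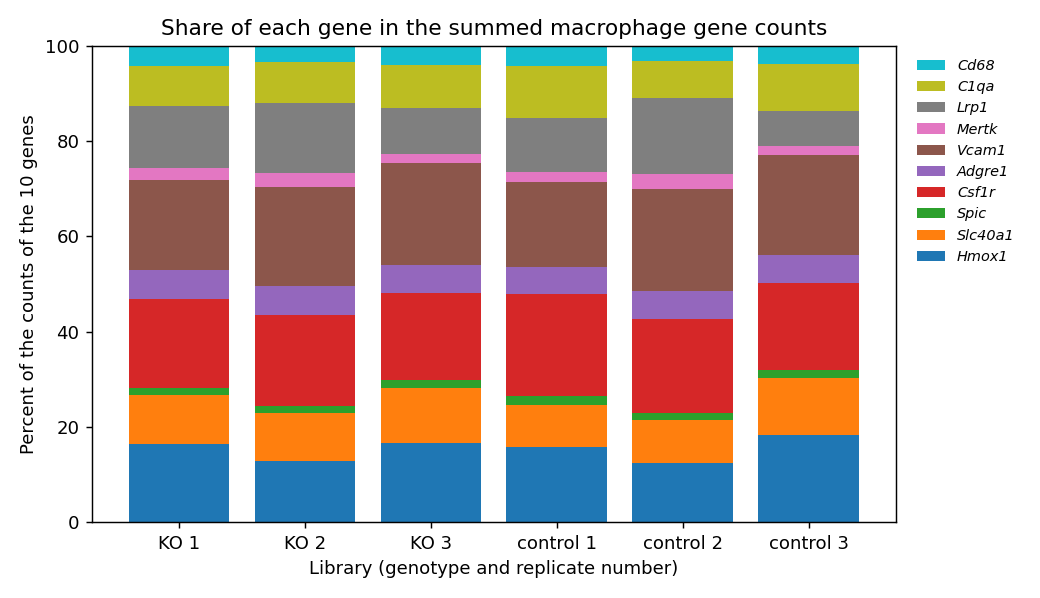
Share of each gene in the summed counts of the 10 macrophage genes (percent, bars starting at 0) for KO replicates 1 to 3 and control replicates 1 to 3. The Lrp1 segment is largest in the libraries numbered 2 (14.6% in KO, 15.9% in control) and smallest in those numbered 3 (9.66% in KO, 7.33% in control).

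Between the genotypes, the macrophage genes leaned higher in KO within libraries numbered 1 and 2 and hardly differed in number 3. Their summed level was 551 CPM in KO against 396 CPM in control in number 1, a ratio of 1.39, and 1357 CPM in KO against 959 CPM in control in number 2, a ratio of 1.42. In number 3 it was 471 CPM in KO against 457 CPM in control, a ratio of 1.03. For single genes, the KO over control ratio of depth-scaled counts had an exact binomial 95% interval above 1 for 8 of 10 genes in number 1, 10 of 10 in number 2 and 1 of 10 in number 3, and an interval below 1 for 0 of 10 in each. Of all tested genes 14.2%, 21.4% and 20.6% had an interval above 1 in numbers 1, 2 and 3, and 16.8%, 16.4% and 26.5% an interval below 1. These intervals compare 2 libraries and cover counting error only. The 10 genes moved together by library, so counts over them are not counts of independent results. Slc40a1 had ratios of 1.63 (1.496 to 1.77), 1.57 (1.48 to 1.67) and 0.995 (0.918 to 1.08) in numbers 1 to 3. Lrp1 was the gene above 1 in number 3, with ratios of 1.61 (1.49 to 1.74), 1.31 (1.247 to 1.37) and 1.36 (1.24 to 1.49) in numbers 1 to 3. Spic, at 0.995 (0.813 to 1.22), and C1qa, at 1.08 (0.988 to 1.17), were the 2 whose interval included 1 in number 1. KO was above control for 9, 10 and 6 of the 10 genes in numbers 1, 2 and 3, against 49.7%, 53.1% and 44.3% of all tested genes, and in all 3 numbers for 6 of the 10, against 21.6%. Over all 6 libraries the genotypes overlapped for all 10, where 8.63% of tested genes had every KO library above every control library and 10.4% every KO library below.

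**Figure D3:**
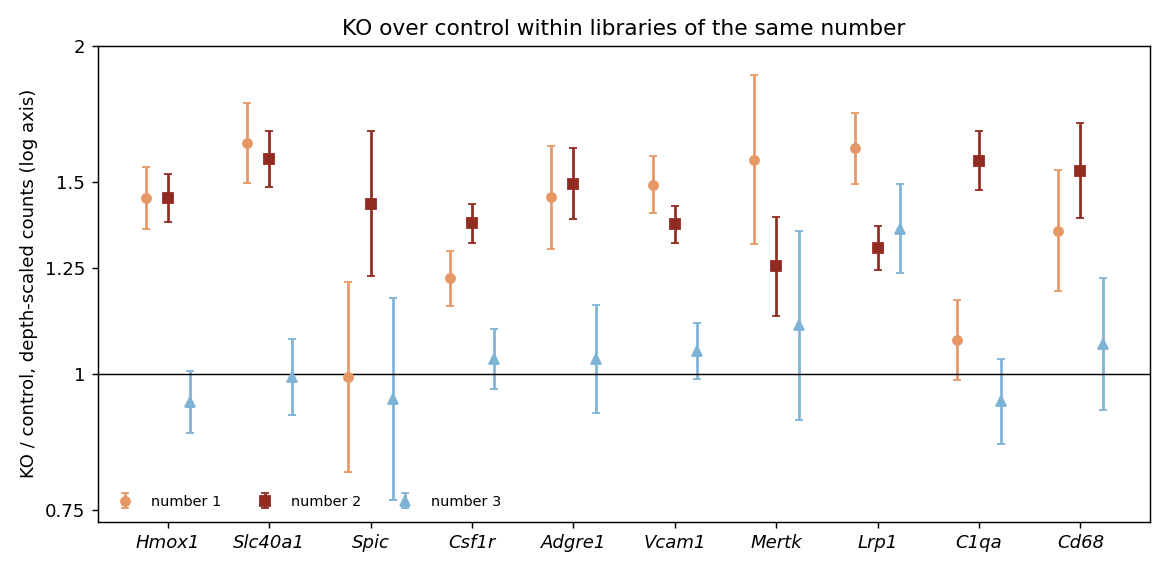
KO over control ratio of depth-scaled counts for each macrophage gene within libraries numbered 1 (circles), 2 (squares) and 3 (triangles), on a log axis, with exact binomial 95% intervals that cover counting error only. Ratios lie between 0.995 and 1.63 in number 1, between 1.26 and 1.57 in number 2, and between 0.944 and 1.11 in number 3 apart from Lrp1 at 1.36.

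Tested over all genes without the replicate number in the fit (edgeR quasi-likelihood), 0 of the 10 macrophage genes were called higher or lower in KO at an adjusted p under 0.05, where 0.1% of tested genes were called higher and 1.39% lower. At an unadjusted p under 0.05 the count was also 0, and DESeq2 called 0, where it called 0.56% of its tested genes higher and 2.05% lower. Without both libraries numbered 2 edgeR also called 0, where 0% of tested genes were called higher and 0.446% lower. Vcam1 averaged 163 ± 104 CPM in KO and 124 ± 72.2 CPM in control (SD, n = 3 each), which is 0.39 ± 0.48 (SE) on the log2 scale with an adjusted p = 0.781. Hmox1 averaged 114 ± 52.2 CPM in KO and 88.6 ± 29.3 CPM in control (0.37 ± 0.32, adjusted p = 0.680). Lrp1 averaged 106 ± 81.6 CPM in KO and 76.9 ± 65.3 CPM in control (0.46 ± 0.64, adjusted p = 0.814). Over the 10 genes the fitted log2 fold changes lay between 0.24 (Spic) and 0.49 (Slc40a1), with a median of 0.38 against -0.0045 for all tested genes. Leaving out KO replicate 2 alone, which keeps the high control replicate 2 in the fit, put all 10 fitted values below 0, between -0.48 (Mertk) and -0.027 (Cd68). Without both libraries numbered 2, 9 of the 10 were above 0, between 0.012 (C1qa) and 0.59 (Lrp1), and Spic was at -0.041.

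With the replicate number as a block, since same-numbered libraries deviated together, 5 of the 10 were called higher in KO and 0 lower, where 1.97% of tested genes were called higher and 4.39% lower. The 10 genes were set out for comparison between genotypes within a number, with earlier results of these data known. The p-values of the block fits for them are therefore a description and no independent test. Lrp1 rose by 0.50 ± 0.07 on the log2 scale (SE, adjusted p = 0.000929), Slc40a1 by 0.46 ± 0.11 (adjusted p = 0.0319), Adgre1 by 0.40 ± 0.09 (0.0273), Cd68 by 0.40 ± 0.10 (0.0344) and Vcam1 by 0.37 ± 0.08 (0.0233). Csf1r, Mertk and Hmox1, with log2 values of 0.27, 0.38 and 0.33, missed the threshold (adjusted p = 0.0525, 0.0553 and 0.077), as did C1qa (0.24, adjusted p = 0.219) and Spic (0.17, adjusted p = 0.482). DESeq2 with the block called 3, Lrp1, Vcam1 and Adgre1 (adjusted p = 5.46e-06, 0.00568 and 0.0364), where 1.08% of genes were called higher and 2.33% lower. Leaving out both libraries of 1 number moved the edgeR count to 1 without number 1 (Lrp1), 2 without number 2 (Lrp1 and Vcam1) and 7 without number 3, where Csf1r and Hmox1 joined the 5. Of all tested genes these fits called 1.66%, 1.72% and 0.545% higher and 2.77%, 4.09% and 2.55% lower. Lrp1 was called in each of these fits, with adjusted p-values between 9.08e-05 and 0.00933. These fits share libraries and are not independent of each other. With so few libraries left, their p-values rest largely on variance estimates shared across genes. The part that macrophage content of the pools has in these differences was not tested.

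Other genes of red pulp macrophages and iron handling were compared across the library numbers with a test of any difference among numbers 1 to 3, genotype being a term of the fit. It called 938 of 11990 tested genes (7.82%), 427 of them (3.56%) with number 2 highest in the fit over both genotypes. Without control replicate 3 it called 386 genes. Of 17 further red pulp and iron genes, 8 were called, 7 of them with number 2 highest: Axl, a receptor kinase for apoptotic cells, Itgad, the CD11d integrin chain of red pulp macrophages, Cd5l, Slc11a1, Cd163, Nr1h3 and Treml4. Itgad stood at 37.9, 121 and 30.8 CPM in KO replicates 1 to 3 and at 26.8, 79.3 and 29.3 CPM in control replicates 1 to 3. Cd163, the receptor for hemoglobin bound to haptoglobin, stood at 12.8, 35.2 and 12.6 CPM in KO replicates 1 to 3 and at 8.37, 29.5 and 12.2 CPM in control replicates 1 to 3. Hpgd was also called, with number 2 highest in KO and number 3 highest in control. The 9 not called were Fth1, Ftl1, Nfe2l2, Bach1, Blvra, Blvrb, Slc48a1, Pparg and Trf. Fth1, the ferritin heavy chain, which T cells also express, stood at 609, 663 and 568 CPM in KO replicates 1 to 3 and at 616, 589 and 656 CPM in control replicates 1 to 3.

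Of 35 further macrophage genes 31 were tested and 19 called, all 19 with number 2 highest. The other C1q chains C1qb and C1qc were among them, with C1qc at 48.2, 116 and 36.9 CPM in KO replicates 1 to 3 and at 40.0, 76.3 and 44.0 CPM in control replicates 1 to 3. Mrc1, the mannose receptor, stood at 37.2, 102 and 36.4 CPM in KO replicates 1 to 3 and at 22.8, 68.1 and 33.4 CPM in control replicates 1 to 3. Ctsd, a lysosomal protease of most cells, was among the 12 not called. Itgam, the CD11b chain of monocytes, neutrophils and many macrophages, had at most 5 counts in any library, and Trem2 had 0 in all 6. Across both lists 27 of 48 tested genes were called, and 16 without KO replicate 2. The median log2 difference of number 2 from the mean of numbers 1 and 3 was 0.97 in KO and 0.44 in control over these 48 genes, against 1.43 in KO and 1.07 in control over the 10 macrophage genes and 0.00433 in KO and -0.00295 in control over all tested genes.

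In KO against control without the block, 0 of the 48 were called in either direction. Of all tested genes 0.1% were called higher and 1.39% lower. With the block, Itgad, Mrc1 and Cd14 were called higher (log2 fold changes of 0.41, 0.48 and 0.58, adjusted p = 0.0195, 0.0115 and 0.0393) and Cybb, a subunit of the phagocyte NADPH oxidase, lower (-0.65, adjusted p = 0.00491). That is 6.25% of the 48 higher and 2.08% lower, where 1.97% of all tested genes were called higher and 4.39% lower.

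Of 3 tested genes of marginal zone and metallophilic macrophages, 1 (Siglec1) was called by number. Marco, a scavenger receptor of marginal zone macrophages, stood at 7.51, 4.04 and 5.87 CPM in KO replicates 1 to 3 and at 1.46, 3.09 and 3.32 CPM in control replicates 1 to 3, so that its groups did not overlap and number 2 was the lowest of KO. The fit gave 1.15 ± 0.33 (SE) on the log2 scale, with an adjusted p = 0.191, and it was called higher in KO with the block (1.16, adjusted p = 0.0345). Cd209b, the lectin SIGN-R1 of the same cells, had 18, 7 and 20 counts in KO replicates 1 to 3 and 13, 8 and 24 counts in control replicates 1 to 3. Siglec1, the sialoadhesin of metallophilic macrophages, was highest in number 2 in both genotypes, with 8.57, 21.9 and 5.98 CPM in KO replicates 1 to 3 and 9.14, 12.3 and 5.04 CPM in control replicates 1 to 3.

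Markers of other cells that a spleen or lymph node sort could hold were mixed: all 3 tested dendritic cell genes and both tested neutrophil genes were highest in number 2 in both genotypes, at low levels, while 4 of 8 tested B cell genes were lowest there. Their part in the macrophage result was not tested. Of 7 tested monocyte genes 1 was called by number with number 2 highest (Nr4a1, which activated T cells also express, with number 2 highest in KO and number 1 highest in control), and Ly6c2 stood between 1.21 and 1.52 CPM in KO and between 2.63 and 4.88 CPM in control. Of 12 neutrophil markers 2 were tested, Csf3r and Mmp9. Csf3r, called by number, stood at 1.22, 2.97 and 0.577 CPM in KO replicates 1 to 3 and 1.04, 2.27 and 0.694 CPM in control replicates 1 to 3. Mmp9 was not called by number, and edgeR without the block called it lower in KO (log2 fold change of -2.40, adjusted p = 0.0132). Among the untested ones S100a8 had at most 1 count in any library. Mpo was lowest in number 2, with 16, 0 and 17 counts in KO replicates 1 to 3 and 3, 0 and 6 counts in control replicates 1 to 3. Of 9 dendritic cell markers 3 were tested, and Itgax, the CD11c chain, was called by number with number 2 highest; Xcr1 and Clec9a had at most 8 counts in any library. Of 8 tested B cell markers 0 were called with number 2 highest and 2 with number 2 lowest, among them Igkc at 12.998, 5.99 and 17.5 CPM in KO replicates 1 to 3 and 12.0, 3.18 and 18.5 CPM in control replicates 1 to 3. Ighm, the most abundant of the list, was not called by number. It stood at 380, 386 and 419 CPM in KO replicates 1 to 3 and at 531, 545 and 563 CPM in control replicates 1 to 3. For Ighm, edgeR without the block gave a call lower in KO (log2 fold change of -0.47, adjusted p = 0.0134). Blnk, not called by number, was highest in number 2 in both genotypes. Hemoglobin genes were low, with Hbb-bs between 2.87 and 7.01 CPM in KO and between 2.19 and 4.601 CPM in control, and 1 of 10 tested red cell genes was called by number (Epor, with number 2 highest). Of 4 tested stromal and endothelial genes 1 was called, Stab2, a scavenger receptor of sinusoidal endothelium, at 9.83, 21.1 and 9.28 CPM in KO replicates 1 to 3 and 6.41, 16.1 and 9.97 CPM in control replicates 1 to 3. Of the plasma cell, NK cell and CD8 T cell lists, 1 of 3, 0 of 1 and 1 of 2 tested genes were called by number (Jchain with number 2 lowest and Cd8a with number 2 highest). Of the 8 Treg and CD4 T cell markers, 2 were called by number, 0 of them with number 2 highest or lowest.

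**Figure D4:**
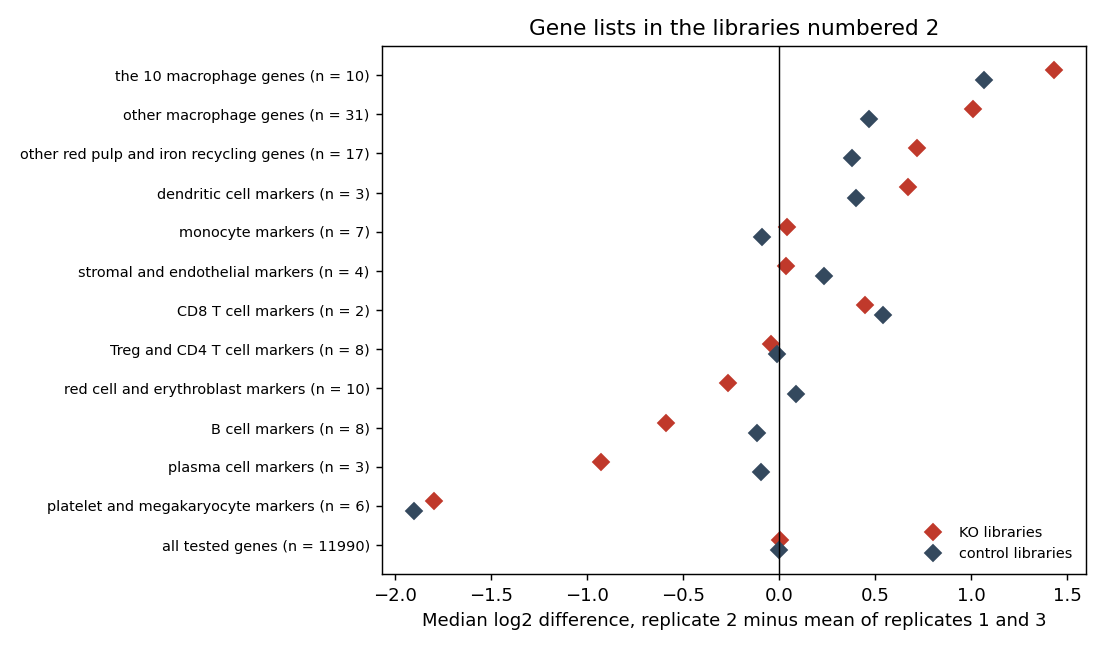
Median log2 difference of the library numbered 2 from the mean of those numbered 1 and 3 (log2 of CPM plus 0.5) for the tested genes of each list drawn, in KO (red, upper of each row) and control (dark, lower of each row), with the number of tested genes in brackets. Not drawn are the neutrophil list (0.95 in KO, 0.74 in control), the marginal zone and metallophilic list (-0.65 in KO, 0.39 in control) and the NK cell list (-0.48 in KO, -0.15 in control). The 10 macrophage genes lie at 1.43 in KO and 1.07 in control, platelet genes at -1.80 in KO and -1.90 in control, and all tested genes at 0.00433 in KO and -0.00295 in control.

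Most of the listed platelet genes ran opposite to the macrophage genes. Of 6 platelet and megakaryocyte genes, 4 were called by number, all 4 with number 2 lowest, against 1.48% of tested genes. Ppbp, a platelet chemokine, had 63, 0 and 94 counts in KO replicates 1 to 3 and 66, 0 and 139 counts in control replicates 1 to 3. Pf4, platelet factor 4, had 36, 1 and 91 counts in KO replicates 1 to 3 and 30, 0 and 133 counts in control replicates 1 to 3. Itga2b, the CD41 integrin chain, stood at 12.4, 4.67 and 23.0 CPM in KO replicates 1 to 3 and at 11.2, 3.999 and 18.6 CPM in control replicates 1 to 3. Gp9 was the remaining one. In both genotypes the order for these 4 genes was number 3 above number 1 above number 2, and 0 of the 4 were called between KO and control in edgeR (adjusted p between 0.911 and 0.9999). The other 2 were not called by number. Itgb3, the most abundant of the 6, stood at 106, 105 and 88.5 CPM in KO replicates 1 to 3 and at 102, 97.0 and 85.3 CPM in control replicates 1 to 3. Gp1ba was lowest in number 2 in KO, but in control it stood at 3.03, 3.73 and 3.65 CPM in replicates 1 to 3.

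**Figure D5:**
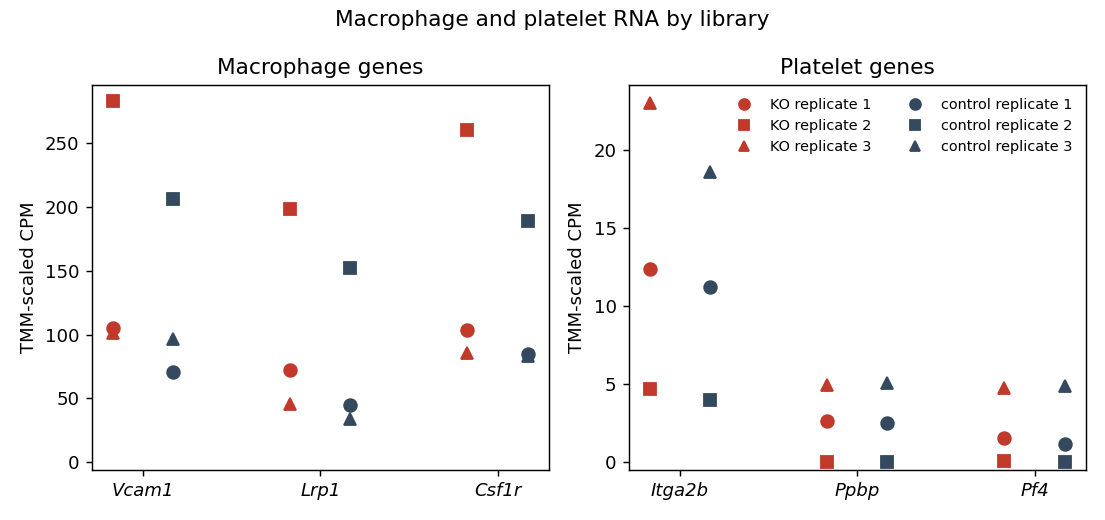
Level (TMM-scaled CPM) of the macrophage genes Vcam1, Lrp1 and Csf1r (left) and the platelet genes Itga2b, Ppbp and Pf4 (right) in each KO (red) and control (dark) library, with marker shape giving the replicate number. The libraries numbered 2 are the highest for the macrophage genes and the lowest for the platelet genes, with Ppbp at 0 in both.

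The genes whose log2 CPM followed the mean of the 10 most closely over the 6 libraries, among other tested genes averaging 1 CPM or more, were Itgad, Nfam1, Cd14, Vstm4, Mpzl1, Sirpa, Slc7a8, Galnt3, Cd300a and Epor. Their Pearson correlations lay between 0.994 (Epor) and 0.999 (Itgad), against 0.962 to 0.998 for the 10 genes themselves with their own mean, and are given as a description, since 2 libraries stand apart and set them. Sirpa, the receptor for the CD47 signal on macrophages, stood at 22.2, 55.8 and 19.8 CPM in KO replicates 1 to 3 and at 17.4, 37.3 and 20.2 CPM in control replicates 1 to 3. Ranked instead by how far number 2 stood above both other numbers in both genotypes, the first 15 genes outside the 10 were Gdf15, Atf3, Sema6d, Slc45a3, Adrb1, Sned1, Dmpk, Trpm2, Mpzl1, Abcc3, Nid2, Itgad, Tbxas1, Ptgs1 and Pcolce2. Gdf15, a stress-induced cytokine, stood at 1.013, 7.98 and 0.105 CPM in KO replicates 1 to 3 and at 1.08, 7.13 and 0.110 CPM in control replicates 1 to 3. Abcc3, an organic anion transporter and the most abundant of the 15 after Itgad, stood at 29.8, 81.2 and 18.7 CPM in KO replicates 1 to 3 and at 24.2, 67.3 and 19.9 CPM in control replicates 1 to 3. Of these 15 genes 0 were called between KO and control without the block.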

How the data were processed

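Per the labels, RNA of YFP-positive Treg pooled from 2 to 3 mice was poly(A)-selected and made into libraries with an NEBNext Ultra II RNA kit. The authors deposited 1 table of raw read counts per Ensembl gene, made with HTSeq. Builds mm9 and mm10 and the tools bedtools, SAMtools, Bowtie2, DESeq2, Cufflinks and HISAT2 are listed in the submitters' processing notes with no role; for the annotation and strand setting, the answer is "not given in the sources used here", so overlapping genes cannot be told apart. The 4 ATAC-seq libraries were not analysed here. Of 22553 IDs, 22522 matched a symbol; the other 31 held 0.00269% of counts.

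The 10 genes, the lists and the tests were chosen with earlier results of these data known. Among these was that number 2 held the most RNA of myeloid genes, so that excess is no independent support. The calls of the 10 genes between KO and control within numbers are no independent support either. The count tests used edgeR 4.0.16 (R 4.3.3): filterByExpr (minimum count 10, minimum total 15; 11990 genes), TMM scaling, quasi-likelihood F test, Benjamini-Hochberg adjustment, calls under 0.05. KO was compared with control without the replicate number, and with it as a block; a second test asked for any difference among numbers with genotype in the fit. SEs come from the F statistic. Log2 differences by number use CPM plus 0.5. Alternatives were DESeq2 1.42.0, its size factors, no filter, each library left out, and both libraries numbered 2 left out; the block without both libraries of 1 number was added after the data were seen. Genes named by rule were the 10, up to 6 of the most abundant genes per list, the 10 closest in pattern and the 15 highest in number 2; other names, such as all called genes of a list and the lowest in number 2, were chosen after their values were seen. On simulated counts both the test by number and the test of KO against control without the block made more of their calls on unchanged genes than the threshold implies, the test by number more so, and the counts of both are liberal. The counts simulated for KO against control held no difference by number, unlike the data. The fit with the block was not simulated, so the share of its calls on unchanged genes is not known.

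A count of 3 equals 0.157 CPM in the shallowest library and 0.109 CPM in the deepest. Within each genotype every pair of libraries was further apart than counting noise (chi-square per degree of freedom 8.75 to 27.4). The deviations of same-numbered libraries from their group means correlated across tested genes at 0.327 to 0.561 in all 3 pairs, against -0.540 to -0.0302 for different numbers. Deviations from a group mean cancel over its 3 libraries, so positive same-number values make the different-number values negative on balance. The numbers were taken to pair the samples for the same-number values, and the labels do not say why they pair.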

Additional observations from a re-analysis of the deposited data

How the results depend on the processing

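Over all genes, KO had 167 lower and 12 higher calls. The replicate block gave 526 lower and 236 higher, DESeq2 263 and 72, DESeq2 with the replicate block 293 and 135, and leaving out both libraries numbered 2 gave 54 and 0. With 1 library left out the counts ranged from 26 to 166 lower and from 0 to 10 higher. Fits with the block and without both libraries of 1 number, added after the data were seen, gave 332 and 199 (number 1), 496 and 208 (number 2) and 309 and 66 (number 3). Of the 10 macrophage genes 0 were called in any fit without the block. With the replicate block 5 were called higher, 3 in DESeq2, and 1, 2 and 7 without numbers 1, 2 and 3. In all fits 0 were called lower.

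The fitted sign of all 10 turned without KO replicate 2: Hmox1 -0.057, Slc40a1 -0.065, Spic -0.31, Csf1r -0.32, Adgre1 -0.20, Vcam1 -0.26, Mertk -0.48, Lrp1 -0.37, C1qa -0.29 and Cd68 -0.027 on the log2 scale. Without control replicate 2 they were highest, in the same order 0.65, 0.88, 0.52, 0.84, 0.95, 0.97, 1.28, 1.43, 0.65 and 0.76. Spic also turned without both libraries numbered 2, at -0.041 with and without the block. Among replicate numbers 938 genes were called, 557 by DESeq2, and from 386 (without control replicate 3) to 1036 with 1 library left out. The 27 other macrophage and red pulp genes called ranged from 16 (without KO replicate 2) to 32. The summed level of the 10 genes moved by less than the SD between replicates under plain totals or DESeq2 size factors. The causes were not tested. With 3 libraries per genotype, the SEs without the block, 0.32 to 0.64 on the log2 scale, exceed the fitted difference for 6 of the 10.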

Other observations

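The genes lowest in the libraries numbered 2, ranked as the highest ones were and with no list fixed for them, were Clu, Tubb1, Ppbp, Myl9, F5, Pf4, Alox12, Nrgn, Gng11, Itga2b, Gp9, Igkc, Thbs1, Ston1 and Vwf. Tubb1, the beta tubulin of platelets, had 2.79, 0 and 8.23 CPM in KO replicates 1 to 3 and 3.07, 0 and 6.94 CPM in control replicates 1 to 3. Vwf, von Willebrand factor of platelets and endothelium, had 5.44, 2.38 and 9.70 CPM in KO replicates 1 to 3 and 3.80, 2.04 and 10.5 CPM in control replicates 1 to 3. Clu, which encodes clusterin, had 4.52, 0.0973 and 7.34 CPM in KO replicates 1 to 3 and 3.84, 0.136 and 8.98 CPM in control replicates 1 to 3.

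Atf3, a stress-induced transcription factor gene and the runner-up among genes highest in number 2, had 0.295, 4.23 and 0.105 CPM in KO replicates 1 to 3 and 0.768, 4.82 and 0.292 CPM in control replicates 1 to 3. Of the 179 genes called between KO and control without the block, 13 (7.26%) were also called among replicate numbers, against 7.82% of all tested genes. Of the 236 genes called higher in KO with the block, 28 (11.9%) were.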
